A study of Mus musculus with 6 samples.

Results

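Heat shock proteins, J proteins and the chaperonin TRiC help other proteins fold, and their genes were followed here in mouse bone-marrow-derived macrophages exposed to monosodium urate (MSU), the crystal of gout. The genes were chosen by name: protein-coding genes called Dnaja, Dnajb or Dnajc with a number, Hsp genes (Hspa to Hspf, Hsph and Hsp with a number), Cct2 to Cct8, and Tcp1. The rule took 83 of the 54532 genes counted. It uses names and no measured value, but it was chosen with earlier results of these data known. RNA sequencing gave 6 libraries. The genotype label was Tet2 knockout for 3 of them and wild-type for the other 3, Tet2 being a dioxygenase that turns 5-methylcytosine into its hydroxymethyl form. All 6 came from MSU-treated cells, so only the genotype label was compared, and a response to MSU was not analysed here. The age of the mice, the strain, the design of the knockout allele, and the dose and duration of MSU are not given in the sources used here. Nothing in the labels says that the replicates came from separate animals or cultures, so the error behind each p-value is library-to-library spread and may be technical.

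HSP70 proteins grip unfolded stretches of other proteins in a cycle driven by ATP. J proteins deliver clients to them and start ATP hydrolysis, and HSP110 proteins and other exchange factors reset the cycle. HSP90 acts later on partly folded clients such as kinases and receptors, small heat shock proteins hold unfolding proteins, and the ring-shaped chaperonins (TRiC in the cytosol, HSP60 with HSP10 in mitochondria) enclose a client while it folds. Heat shock factor 1 (Hsf1) drives many of the cytosolic genes when proteins unfold there, and a separate unfolded protein response drives the set of the endoplasmic reticulum (ER), where secreted and membrane proteins are made. Macrophages depend on the ER set to make cytokines, receptors and lysosomal enzymes.

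The shallowest library held 11997104 counts (wild-type replicate 2) and the deepest 14481843 (knockout replicate 1), and the 83 genes took 1.31 to 1.34% of the counts of a library. Tet2 read 32.8, 34.2 and 34.1 CPM (counts scaled to library size) under the knockout label against 29.3, 27.9 and 30.7 under the wild-type label, with a log2 difference of 0.20 (adjusted p = 0.0159). The targeted gene was therefore not lower under the knockout label, and a count over the whole gene does not test a deletion of part of it. Groups are called by their labels throughout. Wild-type replicate 2 stood apart on the second principal component (9.93% of the variance), at 13.04 against -7.09 and -6.51 for the other wild-type libraries. Macrophage markers summed to 7269 to 7535 CPM under the knockout label and 6959 to 7368 under the wild-type label, with 5 of 10 called higher (among them Adgre1 and Csf1r) and 3 lower (Lyz2, Cd68, Cd14). Connective tissue markers were as abundant, 7085 to 7265 CPM against 7587 to 8100, with 6 of 10 called lower, 1 higher (Col3a1) and Col1a1 at 3195 against 3453 CPM. Neutrophil, dendritic cell and mast cell markers each summed to under 7 CPM in every library. Ly6g, Siglech and Fcer1a were at 0, while Mmp8, Zbtb46 and Kit were detected and not called. The dendritic cell sum was 5.96 to 6.74 CPM under the knockout label and 3.48 to 5.18 under the wild-type label. Of the 2 dendritic cell markers tested, Xcr1 was called higher (log2 difference 1.06, adjusted p = 1.77e-04) and Zbtb46 was the other (0.09). The lymphocyte sum (11.3 to 12.6 against 3.30 to 3.96 CPM) was nearly all Cd4, with Cd3g at 0, and the erythroid and megakaryocyte sum was nearly all Pf4, with the globin genes at 0. Mitochondrially encoded genes held 0.349 to 0.366% of counts under the knockout label and 0.240 to 0.275% under the wild-type label. The part of these shifts in the results that follow was not tested. In RNA from whole cultures, fewer cells of a type and less RNA per cell cannot be told apart.

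The 83 genes did not move together. Of the 69 with enough counts to be tested, 17 were called higher and 18 lower under the knockout label at an edgeR adjusted p under 0.05, and 34 were not called. Their share called was 50.7%, beside 40.9% of all 13175 genes tested. For the 17 higher the share was 24.6% beside 21.6% of all genes, and for the 18 lower 26.1% beside 19.2%. The 3 libraries of one label lay wholly above or below the other 3 for 43 of the 69 genes, 62.3% beside 47.8% of all genes. The median log2 difference was -0.04 (all genes, -0.0031) and the median size of a difference was 0.14 (all genes, 0.17). Most changes were small: 20 of the 35 called genes differed by under 0.25 on the log2 scale, and Hspa1a alone differed by more than 1. By compartment, the 14 ER genes held 7 higher (50%) and 0 lower, and the 9 mitochondrial genes 1 higher (11.1%) and 4 lower (44.4%). The 40 tested genes of the cytosol and nucleus held 8 higher (20%) and 13 lower (32.5%), beside the same 21.6% and 19.2% of all genes. Whether the compartments differ from one another was not tested.

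**Figure D1:**
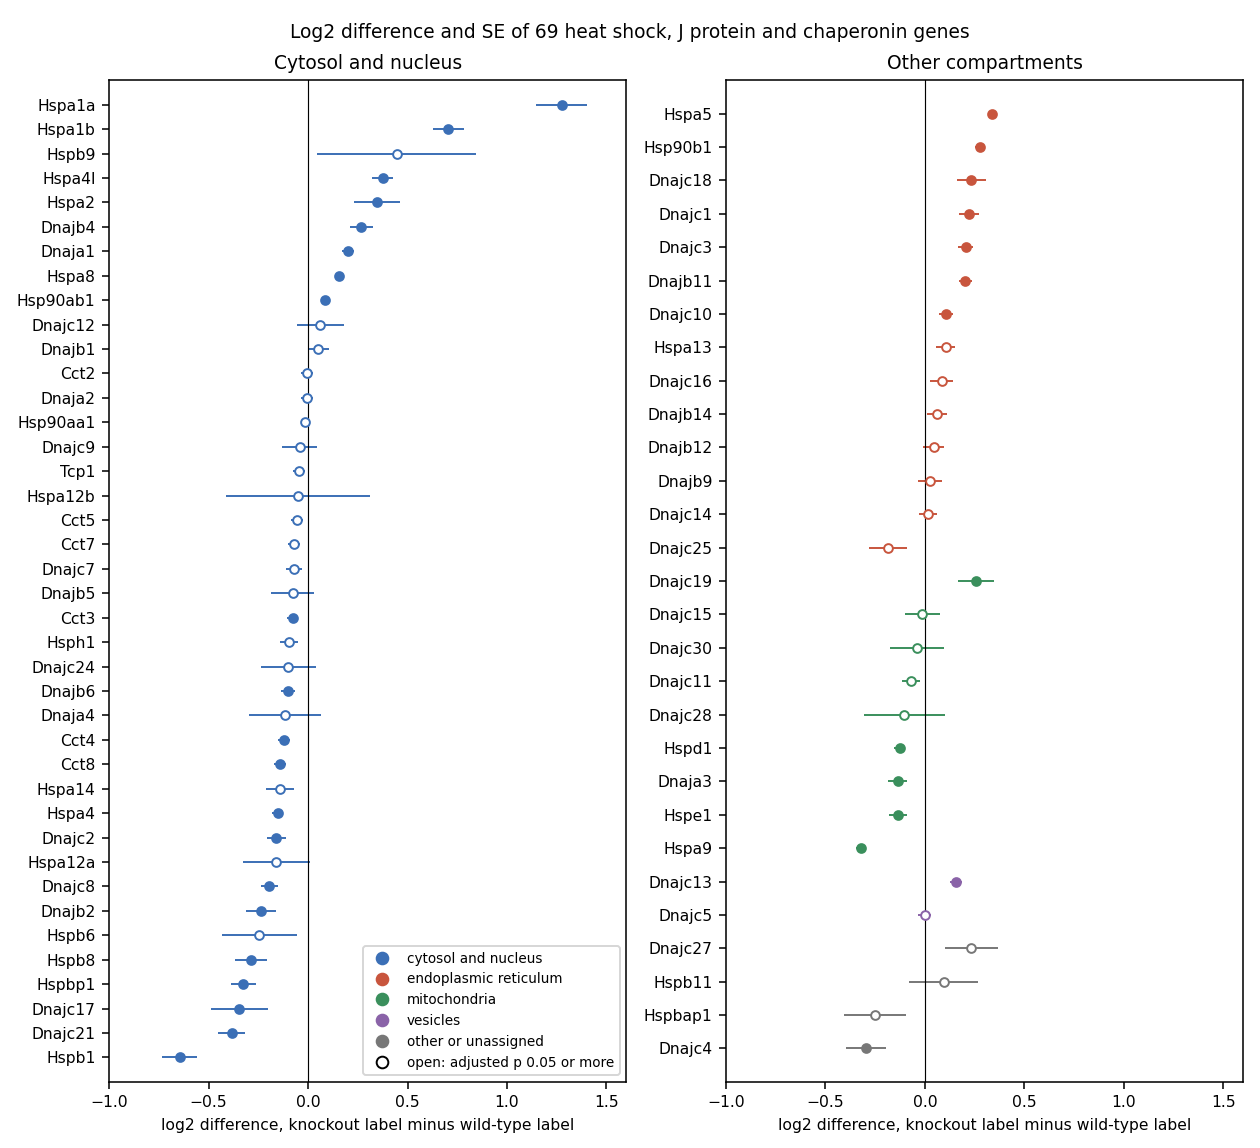
Log2 difference (knockout label minus wild-type label, horizontal axis) of each of the 69 tested genes, one row a gene, with its standard error as a line; filled points passed an adjusted p of 0.05. ER genes lie mostly right of 0 (7 called higher, 0 lower), mitochondrial genes mostly left (1 higher, 4 lower), and the cytosolic genes run from Hspb1 at -0.64 to Hspa1a at 1.27.

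The ER genes gave the most even picture: 7 of 14 rose (50%, beside 21.6% of all genes) and none fell (beside 19.2%). Their median log2 difference was 0.11. The promoters of 3 of these genes hold the ER stress element, the site that transcription factors of the unfolded protein response bind, and it is shown first because all 3 rose. It was searched as CCAAT and CCACG 9 bases apart, on either strand, in RefSeq promoters (GRCm38.p6, 250 bases before to 50 after the RefSeq start). It stood in 39 of 32851 promoters (0.119%). Of the 87 promoters of 68 matched genes it stood in 3 (3.45%), all among the 13 promoters of ER genes (23.1%), namely Hspa5, Hsp90b1 and Dnajc3. The lines below give each site in capitals with flanking bases, 5′ to 3′ on the strand of the gene. They lie at chr2:34772020-34772048 (+) for Hspa5, chr10:86705618-86705676 and chr10:86705513-86705571 (-) for Hsp90b1, whose second site is on the opposite strand, and chr14:118937807-118937865 (+) for Dnajc3.
Hspa5: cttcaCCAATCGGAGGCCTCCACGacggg
Hsp90b1, far site: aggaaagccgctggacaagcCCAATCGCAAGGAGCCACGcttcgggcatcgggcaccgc
Hsp90b1, near site: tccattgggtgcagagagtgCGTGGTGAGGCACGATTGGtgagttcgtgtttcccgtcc
Dnajc3: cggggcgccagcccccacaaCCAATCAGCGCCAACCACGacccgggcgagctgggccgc
The Hspa5 site lies 65 bases before the RefSeq start but inside the longer gene model of the count table. A match of letters is a description, not a measured binding site.

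Hspa5 (BiP, the HSP70 of the ER and its main chaperone; ENSMUSG00000026864, mm10 chr2:34771970-34777547) read 1751, 1739 and 1714 CPM under the knockout label and 1359, 1393 and 1363 under the wild-type label. Every knockout-labelled library lay far above every wild-type one, and the log2 difference was 0.34 (SE 0.022, adjusted p = 1.51e-26). Hsp90b1 (GRP94, the HSP90 of the ER, which folds Toll-like receptors and integrins; ENSMUSG00000020048, chr10:86690209-86705509) stood at 743, 758 and 771 CPM against 626, 634 and 617. Again the groups did not overlap, with a log2 difference of 0.28 (adjusted p = 4.64e-18). In the annotation 15.7% of its exonic bases overlap other genes, mostly on the opposite strand, whose reads cannot be told apart without strand. Dnajc3 (p58IPK, a J protein of BiP that also restrains the kinase PERK) gave 139, 139 and 129 CPM against 116, 116 and 120, a difference of 0.21 (adjusted p = 4.19e-06). The element was not a mark of every ER gene that rose: Dnajb11, Dnajc1, Dnajc10 and Dnajc18 were called higher too, and those of them with a promoter entry lacked these letters in the window.

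Dnajb11 (ERdj3, a secreted J protein of BiP) read 209, 212 and 210 CPM against 183, 183 and 181, with no overlap and a log2 difference of 0.20 (adjusted p = 7.88e-08). Dnajc1 and Dnajc18, membrane J proteins, rose by 0.22 (adjusted p = 1.01e-04) and 0.23 (adjusted p = 0.00599). Dnajc10 (ERdj5, a disulfide reductase) rose by 0.11 (adjusted p = 0.00933). The last 2 calls depended on a library: without wild-type replicate 3 the adjusted p of Dnajc18 was 0.0637, and without knockout replicate 2 that of Dnajc10 was 0.0816. Not every ER gene moved. Dnajb9 (ERdj4), a textbook target of the IRE1 branch, read 43.2, 48.4 and 45.1 CPM against 45.5, 43.7 and 44.9, fully interleaved, with a difference of 0.03 (adjusted p = 0.774). Hspa13, Dnajc16, Dnajb14, Dnajb12 and Dnajc14 had differences of 0.01 to 0.10 and were not called, although Hspa13 passed the threshold without wild-type replicate 2 (adjusted p = 0.0362). Dnajc25 was the 1 ER gene with a negative value, -0.19 (adjusted p = 0.116), and leaving out knockout replicate 1 or wild-type replicate 2 made it a lower call (adjusted p = 0.0395 and 0.0465). Dnajb14 lies 4.32 Mb from Tet2 on the same chromosome. Called members of other compartments lie on it too: Dnajb4 (higher), Cct3 (lower), Hspa4l (higher) and Dnajc19 (higher). Their distances from Tet2 are 18.6, 45.1, 92.7 and 99.4 Mb. Summed over the 14 genes, the ER level was 3511 ± 22.3 CPM (SD, n = 3) under the knockout label and 2932 ± 19.5 (SD, n = 3) under the wild-type label, with Hspa5 and Hsp90b1 making up most of both sums.

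**Figure D2:**
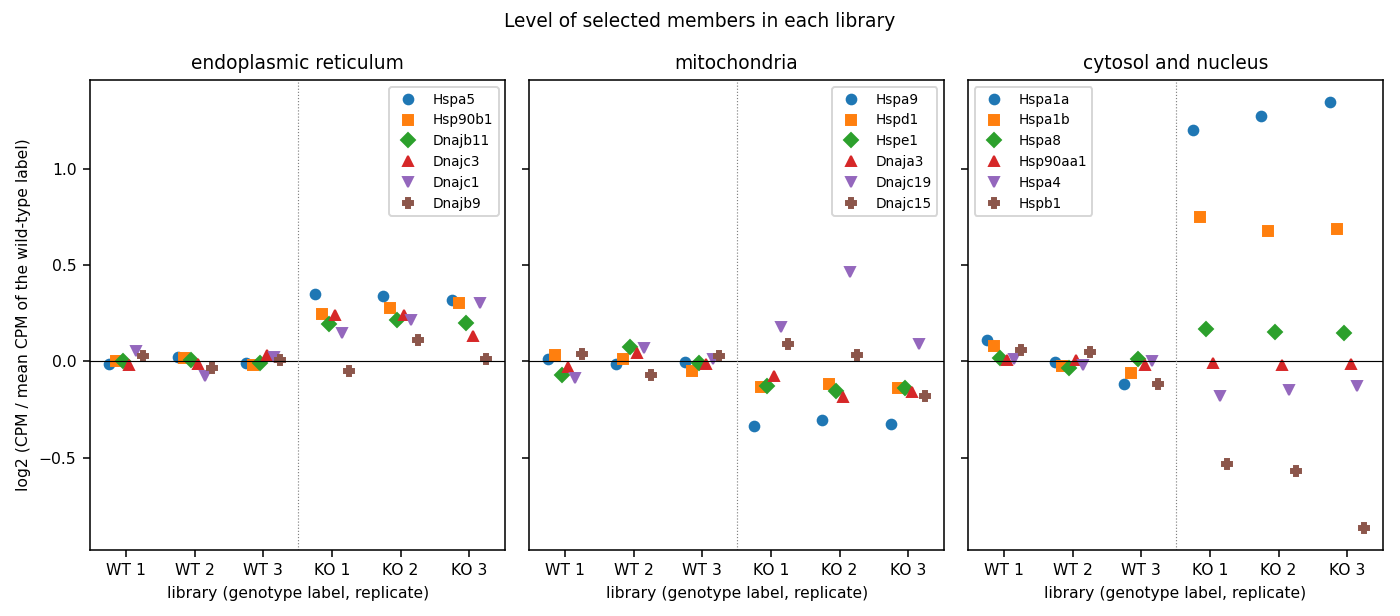
Level of 6 genes of each compartment in every library, as log2 of CPM over the mean CPM of the 3 libraries labelled wild-type (vertical axis); each point is 1 library, and the libraries stand along the horizontal axis. Hspa5 and Hsp90b1 sit above 0 in all 3 knockout-labelled libraries, Hspa9 sits below 0 in all 3, and Hspa1a stands highest and Hspb1 lowest among the cytosolic genes.

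Of the 9 mitochondrial genes 4 were lower (44.4%, beside 19.2% of all genes), 1 was higher and 4 were not called, with a median log2 difference of -0.10. Hspa9 (mortalin, the HSP70 that pulls proteins into the matrix) read 612, 625 and 618 CPM under the knockout label and 780, 767 and 772 under the wild-type label. The groups lay far apart against a spread of a few CPM, with a log2 difference of -0.32 (SE 0.024, adjusted p = 3.24e-22). Hspd1 (HSP60, the matrix chaperonin; chr1:55077835-55088243) gave 321, 325 and 320 CPM against 360, 355 and 340. Hspe1 (HSP10, its lid; chr1:55088132-55091307) gave 79.3, 77.7 and 78.6 CPM against 82.3, 91.3 and 86.0. The pair differed by nearly the same amount, -0.13 for Hspd1 (adjusted p = 9.52e-05) and -0.14 for Hspe1 (adjusted p = 0.0102). Without wild-type replicate 2, the highest library for Hspe1, its adjusted p was 0.0656. Reads of Hspd1 and Hspe1 are less certain, since 39.7% and 18.4% of the 50-base words in their transcripts also occur in other genes. For Hspd1 these are mostly in the pseudogene Hspd1-ps3 (38.0%) and for Hspe1 in AC117239.2, annotated as protein-coding (17.9%).

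Hspd1 and Hspe1 stand head to head, so that one stretch lies before the RefSeq start of Hspe1 and before 1 RefSeq start of Hspd1. A further RefSeq start of Hspd1 lies on the other side of the stretch, and its promoter window holds no core. The stretch also lies inside the longer gene model of Hspd1 in the count table. Heat shock factor binds inverted repeats whose core was searched as GAANNTTC or TTCNNGAA, each its own reverse complement. The lines below show 1 of the cores of the shared stretch in capitals, written on the strand of each gene (chr1:55088048-55088077). It lies 89 bases before the RefSeq start of Hspe1 and 134 before the first-named start of Hspd1.
Hspe1: gccacggtccgTTCTAGAAccttccggaag
Hspd1: cttccggaaggTTCTAGAAcggaccgtggc
No ER stress element was found in any promoter window of these genes, and both genes were lower.

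Dnaja3 (Tid1, the J protein of mortalin) read 67.9, 62.9 and 64.1 CPM against 70.0, 73.6 and 70.9, a log2 difference of -0.14 (adjusted p = 0.0183). Its call was lost without knockout replicate 2 (adjusted p = 0.111), without knockout replicate 3 (0.0663) and with DESeq2 (0.0603). The one mitochondrial riser was Dnajc19 (a J protein of the inner membrane), at 20.1, 24.5 and 18.9 CPM against 16.7, 18.7 and 17.9. Its groups were separated by a narrow gap, and knockout replicate 2 carried much of the difference of 0.26 (adjusted p = 0.0150). Without that library the difference was 0.14 (adjusted p = 0.301), and without wild-type replicate 1 the adjusted p was 0.0954. Dnajc11, Dnajc15, Dnajc28 and Dnajc30 had differences of -0.10 to -0.01 and were not called. The 9 genes summed to 1211 ± 7.21 CPM (SD, n = 3) under the knockout label and 1411 ± 13.3 (SD, n = 3) under the wild-type label, mainly through Hspa9. The share of counts from mitochondrially encoded genes, given above, was higher in the libraries in which this sum was lower.

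Of the 8 genes of the cytosol and nucleus that rose, 4 were HSP70 genes, and the other 4 were Hspa4l, Dnajb4, Dnaja1 and Hsp90ab1. Among the HSP70 genes of the cytosol and nucleus, 4 of 7 tested were higher (57.1%, beside 21.6% of all genes) and 0 lower. In the whole HSP70 family of 10 tested, 5 were higher and 1 lower (Hspa9). Hspa1a and Hspa1b encode the stress-inducible HSP70 and are kept low in unstressed cells. Hspa1a (ENSMUSG00000091971, chr17:34969190-34972156) read 12.6, 13.2 and 13.9 CPM under the knockout label against 5.90, 5.45 and 5.04, the largest difference of all members at 1.27 on the log2 scale (SE 0.13, adjusted p = 2.21e-15). Hspa1b (ENSMUSG00000090877, chr17:34956436-34959238) read 31.7, 30.1 and 30.4 CPM against 19.9, 18.5 and 18.1, a difference of 0.71 (adjusted p = 3.02e-13). In the annotation 19% of the exonic bases of Hspa1a overlap Gm20481 on the opposite strand, whose reads cannot be told apart without strand. For Hspa1b the overlap is 0%. Reads of Gm20481 would also stay in the sum given below. The copies share 58.8% of the 50-base words of Hspa1a, so reads may be split between them or left out. Their sum avoids reads moving from one to the other: 43.9 ± 0.526 CPM (SD, n = 3) against 24.3 ± 1.38 (SD, n = 3), a ratio of 1.81, with no overlap. Their promoters carry the same stretch around a heat shock core, in capitals, 104 bases before each start, at chr17:34972233-34972280 for Hspa1a and chr17:34959315-34959362 for Hspa1b, both on the minus strand.
Hspa1a: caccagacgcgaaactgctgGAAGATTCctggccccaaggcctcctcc
Hspa1b: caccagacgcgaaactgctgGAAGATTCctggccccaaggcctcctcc

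The constitutive Hspa8 (HSC70, which also uncoats clathrin vesicles) rose much less. It read 2195, 2170 and 2162 CPM against 1978, 1909 and 1969, a difference of 0.16 (adjusted p = 9.64e-10), although 38.6% of its words occur in other genes, mainly pseudogenes. Hspa2, best known from the testis, gave 11.2, 11.7 and 12.4 CPM against 9.80, 8.91 and 8.99, a difference of 0.35 (adjusted p = 0.0116), and its adjusted p was 0.0542 without knockout replicate 3 and 0.0578 with DESeq2. Hspa14, Hspa12a and Hspa12b were not called, at -0.14, -0.16 and -0.05.

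The HSP110 genes, which release ADP from HSP70, went in opposite directions. Hspa4l was 65.5, 66.5 and 61.6 CPM against 51.7, 48.3 and 49.1, a rise of 0.38 (adjusted p = 2.46e-09). Hspa4 was 349, 357 and 361 CPM against 399, 389 and 396, a difference of -0.15 (adjusted p = 1.65e-06). Both separated the labels completely. Hsph1, the heat-inducible member, had -0.10 (adjusted p = 0.0680). That value passed the threshold without knockout replicate 3 (adjusted p = 0.0398), without wild-type replicate 2 (0.0122) and with upper-quartile scaling (0.0245).

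For HSP90, the constitutive cytosolic Hsp90ab1 read 1833, 1817 and 1846 CPM against 1711, 1743 and 1719, a small but separated difference of 0.09 (adjusted p = 5.27e-04). The inducible Hsp90aa1 was close between labels, at 647, 641 and 645 CPM against 655, 654 and 643, a difference of -0.01 (SE 0.025, adjusted p = 0.711), with 47.5% of its words found elsewhere.

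Cytosolic J proteins were split as well. Dnaja1 (HDJ2, the main class A partner of HSC70) read 285, 297 and 304 CPM against 254, 263 and 253, a rise of 0.20 (adjusted p = 8.71e-09). In the annotation 10.8% of its exonic bases overlap other genes, and 11.9% of its words occur in other genes. Dnajb4 gave 51.8, 53.3 and 56.7 CPM against 43.3, 45.1 and 45.8, a rise of 0.27 (adjusted p = 4.31e-05). Dnajb1 (HSP40), the inducible class B partner, overlapped between labels at 56.5, 54.4 and 59.6 against 53.8, 58.3 and 52.5 CPM, with a difference of 0.05 (adjusted p = 0.477). All 4 called class C genes of the cytosol and nucleus were lower, of 8 tested (50%, beside 19.2% of all genes). Dnajc21, which acts in the maturation of the large ribosomal subunit, read 27.9, 27.0 and 29.7 CPM against 35.0, 37.0 and 38.3, a difference of -0.38 (SE 0.069, adjusted p = 1.71e-06). Dnajc2 (MPP11, a J protein on the ribosome), Dnajc8 (linked to splicing) and Dnajc17 had differences of -0.16, -0.20 and -0.35 (adjusted p = 0.00607, 9.03e-05 and 0.0473). Dnajc17 was the least secure, at 5.75, 6.68 and 5.83 CPM against 6.96, 8.25 and 8.06: its call was lost without any of 4 libraries in turn (knockout replicates 1 and 3, wild-type replicates 2 and 3; adjusted p 0.117 to 0.142), and also with DESeq2 (0.131), limma-voom (0.0543) and no filter on low counts (0.0754). In class B, Dnajb2 and Dnajb6, which hold back protein aggregation, had -0.24 and -0.10 (adjusted p = 0.00953 and 0.0156). Dnajb2 lost its call without knockout replicate 3 (0.0582) or wild-type replicate 2 (0.0814), and Dnajb6 without knockout replicate 1 (0.0971), knockout replicate 3 (0.0913) or wild-type replicate 3 (0.0553). Other genes hold 17.7% of the words of Dnajb6 and 13.9% of those of Dnajc17.

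Small heat shock proteins gave the largest fall. Hspb1 (HSP25, an ATP-independent holding chaperone that also binds actin) read 17.3, 16.8 and 13.7 CPM under the knockout label against 26.1, 25.9 and 23.0, a difference of -0.64 (SE 0.088, adjusted p = 6.94e-10). A pseudogene, Hsp25-ps1, holds 48.8% of its words, so its level may be under-counted. Its promoter has 2 heat shock cores, and the stretch with the upstream one is given beside those of the Hspa1 genes because Hspb1 was lower and they were higher (chr5:135887782-135887829, plus strand, 117 bases before the start).
Hspb1: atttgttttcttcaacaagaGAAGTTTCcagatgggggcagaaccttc
Hspb8 (HSP22, which works with the exchange factor Bag3 in autophagy) gave 22.9, 19.8 and 21.6 CPM against 26.9, 25.4 and 26.2, a difference of -0.29 (adjusted p = 0.00214). Hspb6 and Hspb9 had under 5 CPM in every library and were not called, with -0.25 and 0.44. The 7 small heat shock genes summed to 43.2 ± 2.64 CPM against 57.1 ± 1.39 (SD, n = 3 each).

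**Figure D3:**
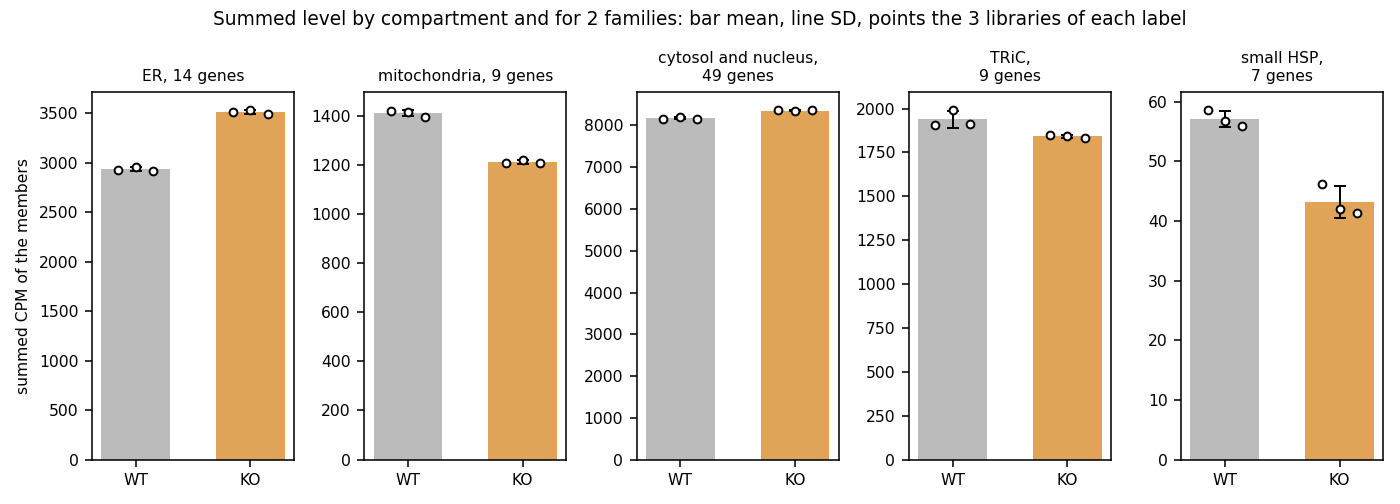
Summed CPM of the genes of 3 compartments and 2 families (vertical axes, each from 0), with the mean as a bar, the SD as a line and the 3 libraries of each label as points. ER genes stand at 3511 against 2932, mitochondrial genes at 1211 against 1411, and small heat shock genes at 43.2 against 57.1 CPM (knockout label against wild-type label).

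TRiC builds its ring from Tcp1 and the Cct subunits and folds actin and tubulin. Every one of the 7 tested subunit genes had a negative difference under TMM scaling, from -0.14 to -0.01. Of these, 3 were called lower (42.9%, beside 19.2% of all genes). The difference of Cct2 turned positive without knockout replicate 1 or 2 or wild-type replicate 2. Cct8 read 288, 294 and 280 CPM against 309, 325 and 316, a difference of -0.14 (adjusted p = 3.03e-05). Cct4 read 236, 239 and 232 CPM against 256, 260 and 252, a difference of -0.12 (adjusted p = 6.70e-04). These 2 genes separated the labels and kept their calls without any 1 library. Cct3, at 277, 265 and 272 CPM against 282, 297 and 281, had -0.08 (adjusted p = 0.0276). Its adjusted p was 0.0653 with DESeq2, 0.184 without knockout replicate 2, 0.0670 without knockout replicate 3 and 0.0923 without wild-type replicate 2. Cct7, at 262, 255 and 262 CPM against 266, 281 and 271, missed the threshold (-0.07, adjusted p = 0.0521), but passed it with RLE scaling (0.0388), with upper-quartile scaling (0.0117) and without wild-type replicate 1 (0.0261). Cct5, Tcp1 and Cct2 overlapped between labels and were not called, although Cct5 (-0.05) passed the threshold with upper-quartile scaling (adjusted p = 0.0469). Cct5 read 245, 244 and 233 CPM against 245, 259 and 247, and Tcp1 read 242, 247 and 248 against 253, 261 and 247. Cct2 read 299, 297 and 308 CPM against 297, 309 and 301, and its difference of -0.01 had an adjusted p of 0.891. Wild-type replicate 2, the library that stood apart, was the highest of its label in 7 of 7 subunit genes. The family summed to 1842 ± 7.11 CPM against 1938 ± 47.7 (SD, n = 3 each), and the wide wild-type spread came from that library, at 1993 beside 1907 and 1915. Cct6a was not analysed here, and the testis paralogue Cct6b had at most 4 counts in a library.

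The remaining members are Hsp-named genes outside the chaperone families and J proteins of vesicles or of no assigned place. Hspbp1, an exchange factor for HSP70, read 40.3, 37.0 and 35.9 CPM against 47.3, 45.7 and 48.9, a difference of -0.33 (adjusted p = 4.35e-06). Hspbap1 gave 5.75, 5.04 and 5.37 CPM against 6.68, 7.01 and 5.61, with overlap (-0.25, adjusted p = 0.201). Dnajc13 (RME-8, of endosomes) rose by 0.16 (adjusted p = 1.20e-05), and Dnajc5 (the cysteine string protein of vesicles) was at -0.0020. Dnajc4 had -0.30 (adjusted p = 0.0135), and it lost that call without knockout replicate 2, knockout replicate 3 or wild-type replicate 1 (adjusted p 0.0570 to 0.0629) and with DESeq2 (0.0561). A further 14 members had too few counts to test, none above 20 in any library. Of these, Dnajb8, Hspb3, Cct8l1, Dnajc5b and Dnajc5g were at 0 in all 6 libraries, which allows a level of up to 0.2072 to 0.2501 CPM by library (3 counts of the total, counting error only).

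Levels between genes were compared per length, in RPKM (CPM divided by the gene's length in kilobases). Hsp90ab1 stood highest, at 611 ± 4.78 under the knockout label and 575 ± 5.59 under the wild-type label (SD, n = 3 each). Hspa8 followed at 506 against 454 and Hspa5 at 410 against 324, each below the one before it in every library. Next came Hspa9, Hsp90b1 and Hsp90aa1, whose ranges over the 6 libraries overlapped, and their order differed between the labels. Under the wild-type label Hspa9 (197) was above Hsp90aa1 (166) and Hsp90b1 (155), while under the knockout label Hsp90b1 (188) was above Hsp90aa1 (164) and Hspa9 (157). Hspd1, at a mean of 127 over all libraries, and Cct2, at 118, came after these. This order takes no account of reads shared with other genes. The share of words found in other genes was 38.6% for Hspa8, 47.5% for Hsp90aa1 and 39.7% for Hspd1. For Hsp90ab1 it was 3.44% and for Hspa5 0%. The order also rests on the lengths used. Cct2 (2557 bases) and Cct3 (6370 bases) had 302.5 and 286.4 CPM under the wild-type label, but 118.3 and 45.0 RPKM. Hspa1a stood at 4.46 against 1.84 RPKM, so the largest difference on the log2 scale belonged to one of the less abundant genes. The 3 genes with the most counts held 40.8% of all counts of the 83.

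**Figure D4:**
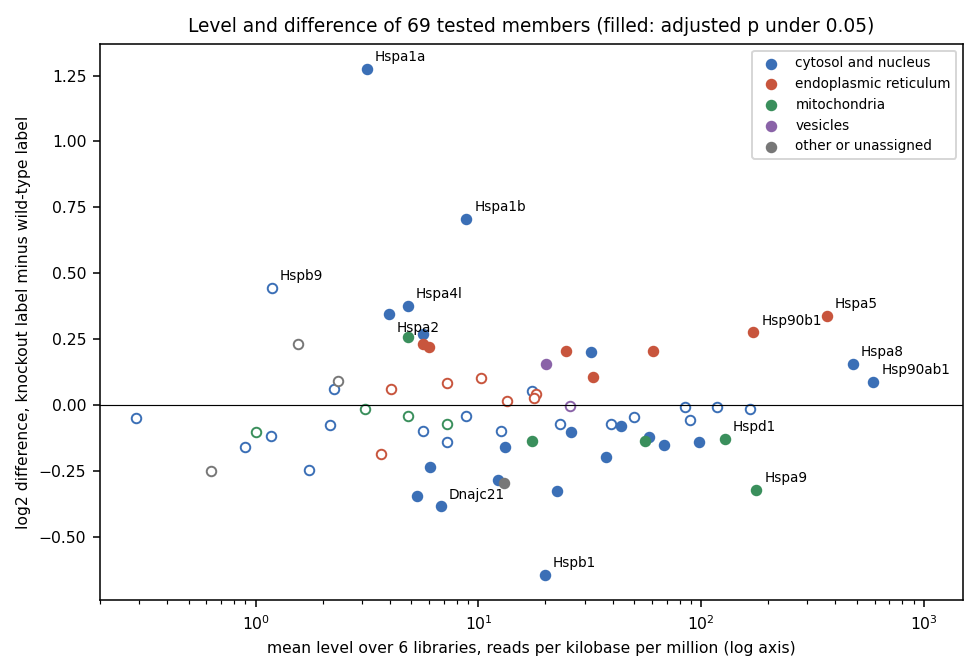
Mean level over the 6 libraries in RPKM (horizontal log axis) against the log2 difference, knockout label minus wild-type label (vertical axis), for the 69 tested genes coloured by compartment; filled points passed an adjusted p of 0.05. Hspa1a and Hspa1b show the largest rises at low levels, while Hspa5, Hsp90b1 and Hspa9 changed at high levels.

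Promoters with a heat shock core were found across the members without a common direction. GAANNTTC stood in 20.7% of the 87 member promoters and 7.86% of all promoters, and TTCNNGAA in 10.3% and 8.52%. Either core was present in 24.1% of member promoters and 15.1% of all. Genes with a core included Hspa1a, Hspa1b, Dnaja1 and Dnajb4, which rose, Hspd1, Hspe1, Hspb1 and Dnajb6, which fell, and Hsph1, Cct2 and Cct5, which were not called. Among the regulators, Hsf1 was not called: 25.9 ± 1.67 against 25.7 ± 0.414 CPM (SD, n = 3 each), a difference of 0.01 (SE 0.077, adjusted p = 0.961). Of 4 tested genes of the heat shock factor list, 1 was called (25%, beside 40.9% of all genes). It was Hsbp1, a binding protein of Hsf1, at -0.15 (adjusted p = 0.00177).

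Partner genes of each machine were listed by function and counted in the same fit. What sets a list apart was not tested. The lists were chosen with earlier results of these data known, so they are no independent check of the members. Of the ER chaperones and foldases outside the name rule, 11 of 18 were higher (61.1%, beside 21.6% of all genes) and 1 lower. Their median log2 difference was 0.13. Calr and Canx (the lectin chaperones calreticulin and calnexin) rose by 0.39 and 0.24, Uggt1 (which tags unfolded glycoproteins for them) by 0.48, and Sdf2l1 (a BiP cofactor) by 0.55. The 1 called lower was Serpinh1 (HSP47, the collagen chaperone), at 465 ± 8.65 against 587 ± 11.1 CPM (SD, n = 3 each). Its log2 difference was -0.34 (adjusted p = 7.05e-22), beside the lower connective tissue markers given above. The 6 not called were P4hb, Sil1 and Pdia5 (-0.02, -0.06 and -0.09) and Creld2, Sdf2 and Ero1lb (0.12, 0.05 and 0.05). Among 15 mitochondrial chaperones and proteases 5 were lower (33.3%, beside 19.2% of all genes) and 3 higher (20%, beside 21.6%). Those lower included Grpel1 and Grpel2 (the exchange factors of Hspa9, -0.25 and -0.27), Timm44 (which tethers Hspa9 to the import channel, -0.21) and Hscb. The 3 higher were Trap1 (the mitochondrial HSP90, 0.19), Lonp1 and Afg3l2. The other 7 were not called, among them Timm23 and Pam16 (-0.09 each, adjusted p = 0.0813 and 0.557).

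Of 15 prefoldin and TRiC cofactors, 8 were lower (53.3%, beside 19.2% of all genes) and 1 higher, with a median of -0.15. Prefoldin hands nascent actin and tubulin to TRiC, and its subunits Pfdn2, Pfdn4, Pfdn5, Pfdn6 and Vbp1 fell by 0.33, 0.33, 0.15, 0.23 and 0.21 on the log2 scale. Pfdn1, the remaining subunit listed, was not called (-0.04). Tbcd, a tubulin cofactor, was the 1 that rose (0.21). HSP90 co-chaperones had 2 higher (11.1%, beside 21.6%) and 6 lower (33.3%, beside 19.2%) of 18. Ahsa1, which speeds the ATPase of HSP90, rose by 0.26 (adjusted p = 1.37e-11) and Ptges3 (p23, which slows it) fell by 0.21 (adjusted p = 2.10e-07). Of 12 HSP70 co-chaperones, 1 was higher (St13, 8.33%, beside 21.6%) and 2 were lower (Stub1 and Sgta, 16.7%, beside 19.2%).

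All 10 tested regulators listed of the unfolded protein response were called (100%, beside 40.9% of all genes). Of these, 5 were higher (50%, beside 21.6%) and 5 lower (50%, beside 19.2%). The sensor genes Atf6, Atf6b and Eif2ak3 (PERK) rose by 0.27, 0.22 and 0.26, as did the transcription factor gene Xbp1 (0.22) and Herpud1 (0.26), of ER-associated degradation. The lower ones were Ern1 (the sensor IRE1, -0.40) and Atf4, Ddit3 (CHOP), Trib3 and Ppp1r15a (GADD34), which act downstream of PERK in the integrated stress response, at -0.37, -0.51, -0.35 and -0.24. Atf4 stood at 347 ± 12.8 against 449 ± 10.3 CPM and Ddit3 at 64.1 ± 2.25 against 91.2 ± 1.49 (SD, n = 3 each).

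**Figure D5:**
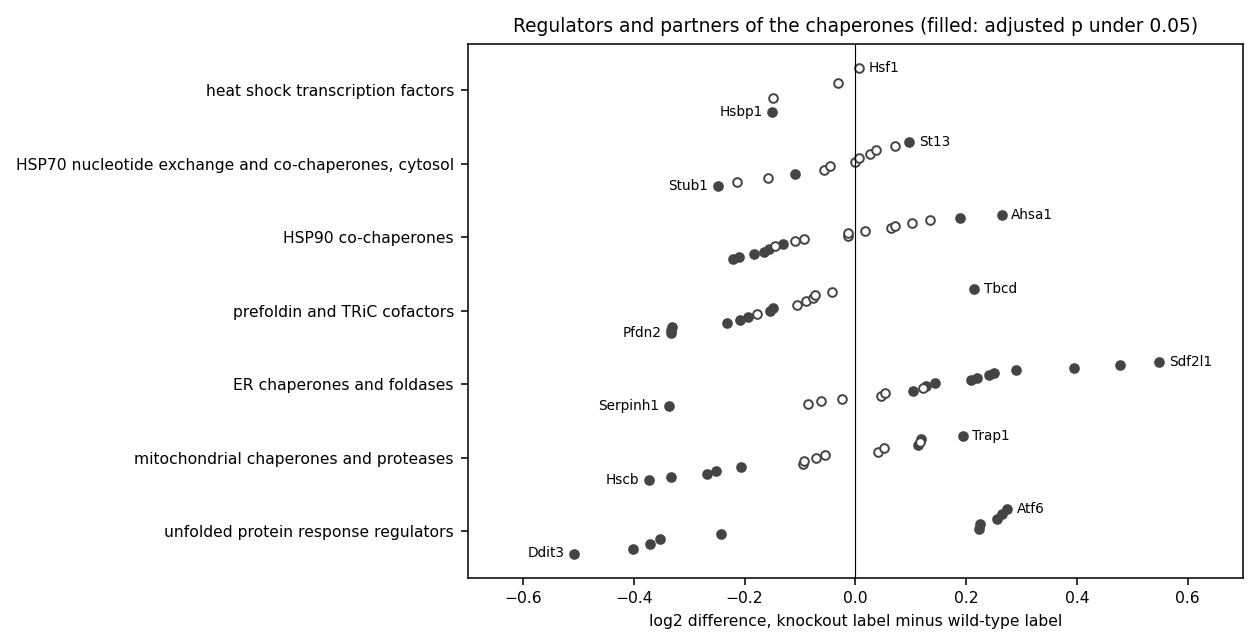
Log2 difference, knockout label minus wild-type label (horizontal axis), of regulators and partner genes in 7 lists, one point a gene; filled points passed an adjusted p of 0.05. ER chaperones and foldases lie mostly right of 0 (11 higher, 1 lower), prefoldin and TRiC cofactors mostly left (1 higher, 8 lower), and regulators of the unfolded protein response fall on both sides (5 and 5).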

How the data were processed

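Per the labels' protocols, total RNA was extracted with the RNeasy Plus Mini Kit and made into libraries with a NEBNext Ultra RNA kit, which does not mark strand. The submitters' processing notes name fastp, STAR, featureCounts and mm10, with versions and strand setting not given in the sources used here. The deposited values are raw counts per gene in 1 table with 6 sample columns.

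Differences were fitted to the counts with edgeR 4.0.16 (R 4.3.3): filterByExpr (minimum count 10), TMM scaling, the robust quasi-likelihood test with genotype label as the only term, and Benjamini-Hochberg adjustment over all 13175 genes tested. The threshold was 0.05. Log2 differences are knockout label minus wild-type label with a prior count of 0.125. CPM uses the TMM library sizes of tested genes, and RPKM divides it by the file's gene length. With 3 libraries against 3 an exact permutation test cannot go below p = 0.1, so single values rest on the model.

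Compartments, families and lists come from textbook knowledge, and all members and lists were chosen with earlier results of these data known. Values in every library are given for the 5 largest rises and falls, the 2 members of each family with the smallest p, and TRiC; other genes were named after their values were seen. A single listed gene is not reported here. Shared 50-base words and exon overlap come from GENCODE M21, whose coordinates equal the file's for 80 of 83 members. The test was tried on simulated counts. The labels do not say whether replicate numbers pair the libraries. Same-numbered libraries deviated together with r = 0.0040, -0.0061 and -0.0137 across genes. Libraries of one label differed by only 1.55 to 2.32 times the sampling variance, so these values cannot decide whether libraries were paired. Alternatives were other scalings, DESeq2 1.42.0, limma-voom (limma 3.58.1), other filters, protein-coding genes only, a replicate block, a biological coefficient of variation set to 0.1, and each library left out in turn. Figures were drawn in Python 3.11.15 with matplotlib 3.10.9.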

Additional observations from a re-analysis of the deposited data

How the results depend on the processing

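Of the 35 called members, 7 (Hspa1a, Hspa1b, Hspa4l, Hspa5, Hspa9, Hspb1, Dnajc21) stayed called under each of the 15 alternatives. The common biological coefficient of variation of these libraries was 2.63%. With an assumed one of 0.1, the other 28 calls were lost: the count of all genes tested higher was 1222 and that of all genes tested lower was 663, with 4 members higher and 3 lower, of them 3 and 2 in the cytosol and nucleus, 1 ER gene higher, and 0 mitochondrial genes higher and 1 lower. DESeq2 called 0 mitochondrial genes higher. Leaving out 1 library gave 0 to 1 ER genes lower and 0 to 1 mitochondrial genes higher. Upper-quartile scaling shifted the median of all genes by -0.0199 and the share of calls that were higher from 53.0% to 47.4%. With the replicate block, 17 members were higher and 18 lower, and no member's call changed. Members that changed sign were all uncalled. Leaving out 1 library, their log2 differences ran from -0.0225 to 0.0045 for Cct2, -0.31 to 0.17 for Hspa12b, -0.0356 to 0.0143 for Dnaja2, -0.14 to 0.0245 for Dnajb5, -0.20 to 0.0466 for Dnajc24, -0.14 to 0.0248 for Dnajc9, -0.0202 to 0.0646 for Dnajb9, -0.0132 to 0.0550 for Dnajc14 (-0.0055 with upper-quartile scaling), -0.0676 to 0.0609 for Dnajc15, -0.22 to 0.0165 for Dnajc28, -0.16 to 0.13 for Dnajc30, -0.0104 to 0.18 for Hspb11 and -0.0351 to 0.0087 for Dnajc5. The cause of these changes was not tested. Depth limits the low genes: 2 tested members had under 2 CPM on average, and 14 could not be tested.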
